A study of Saccharomyces cerevisiae with 14 samples.

Results

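The change in the transcript ratio between an artemisinic acid-producing yeast and its non-producing counterpart was followed from 48 to 72 h after induction. The series holds 14 2-color cDNA slides, and the comparison used the 10 slides of the later times, 5 for each time (48 h A to E and 72 h A to E). Each slide carried cDNA of EPY330 and of EPY338 together. Of the 6040 open reading frames (ORFs) listed, the 5691 with a value on at least 3 slides at both times were tested, and 4988 of these had a value on all 10 slides. Both strains are Saccharomyces cerevisiae EPY300 with the ura3Δ0 and lys2Δ0 alleles repaired. EPY300 derives from BY4742 (MATα his3Δ1 leu2Δ0) and holds additional copies of a truncated HMG-CoA reductase gene (tHMGR), of ERG20 and of the upc2-1 allele under the GAL1 promoter, and ERG9 under the MET3 promoter. EPY330 carried pESC-Leu2d::ADS/AMO/CPR, which encodes amorphadiene synthase, amorphadiene oxidase and its reductase, and it makes artemisinic acid. EPY338 carried the same plasmid with the AMO enzyme inactivated by a point mutation, so its pathway ends at amorphadiene. Cultures grew in rich galactose medium without selection for the plasmid, and producing cells are known to lose it, so each culture can be a mixture of cells with and without the pathway. RNA of 5 transformants was pooled for each strain and time, and every slide of a time carried the same pair of pools. The SD between slides is therefore technical, and each p-value sets 1 pair of RNA pools per time against the error between slides.

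Values are log2(EPY330/EPY338), so values above 0 mean more transcript in the producer. An ORF is said to rise where this strain ratio was higher at 72 h than at 48 h, and to fall where it was lower, with an adjusted p under 0.05 in limma. A fall can come from less transcript in EPY330 or from more in EPY338, and the 2 cannot be told apart in a ratio. Artemisinic acid is a lipophilic weak acid. Yeast meets such compounds with the pleiotropic drug resistance network, in which the zinc-cluster activators Pdr1p and Pdr3p switch on ATP-binding cassette pumps, other exporters and membrane lipid genes. Slow-growing yeast also lowers the transcripts of ribosomal proteins as a block, and glucose represses the genes of respiration, gluconeogenesis and galactose use while inducing low-affinity hexose transporters. These programs move many transcripts at once, and their members were counted as groups.

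The slides of one time point were not alike. The 10 slides held values for 5466 to 5940 ORFs each, with medians of the log2 ratio from -0.0231 to 0.00881 and SDs over the ORFs from 0.467 to 0.876. Pearson's r over the ORFs ranged from 0.364 to 0.857 between the 48 h slides and from 0.439 to 0.785 between the 72 h slides. Average-linkage clustering of all 14 slides gave 3 sets, which the labels do not name. The first held 48 h A and B with 72 h D and E (and 24 h A and C), the second 48 h C to E (and 24 h B and D), and the third 72 h A to C. Slides 48 h C to E correlated with 72 h A to C at r from -0.097 to 0.111, whereas 48 h B correlated with 72 h D at 0.698 and with 72 h E at 0.70. Slide 48 h A correlated with 72 h D at 0.56 and with 72 h E at 0.571. These lay below its r of 0.616 with 48 h C and 0.603 with 48 h D, which are in the second set. Only the first set holds both times. The difference of 72 h D and E minus 48 h A and B is therefore given beside the results as the within-set difference, and its sign and size show what the comparison looked like on the slides of that set alone.

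**Figure D1:**
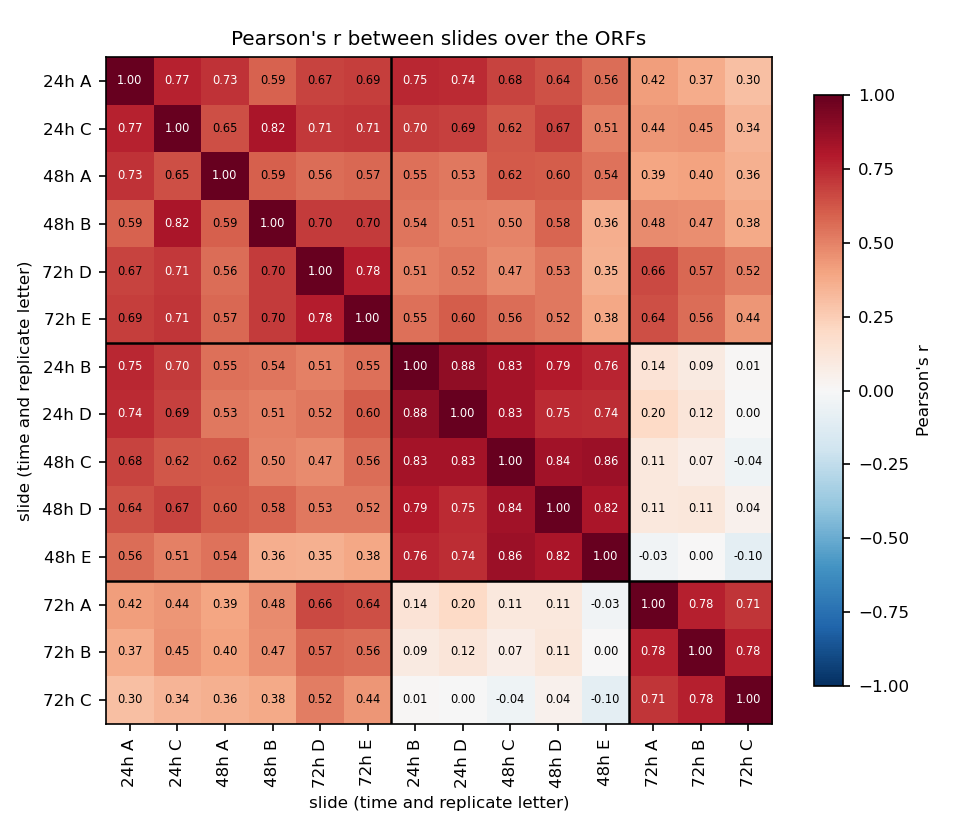
Pearson's r between the 14 slides over the ORFs with a value on both, with slides ordered by set and black lines between the sets. The block of 48 h C to E (with 24 h B and D) and the block of 72 h A to C are nearly uncorrelated, with r from -0.097 to 0.111 between the 48 h and 72 h slides.

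The ratio of 1369 of 5691 ORFs (24.1%) differed between 48 and 72 h. It rose for 615 (10.8%) and fell for 754 (13.2%). The change was over 2-fold for 402 ORFs (7.06%), of which 146 rose and 256 fell. The ORFs that fell had a median log2 ratio of 0.692 at 48 h, with 707 of 754 above 0, and of -0.209 at 72 h. Those that rose had a median of -0.704 at 48 h, with 30 of 615 above 0, and of 0.126 at 72 h. The mean ratio was closer to 0 at 72 h for 549 of the ORFs that fell and for 471 of those that rose, and also for 2452 of the 4322 that did not pass. Among the 4988 ORFs with all 10 values, the 48 and 72 h slides did not overlap for 599 (12%), and 536 of these passed the test (225 rose and 311 fell).

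These counts rested on slides 48 h C to E and 72 h A to C. Compared on their own, those 6 slides gave 3119 of 5691 ORFs (54.8%), 1530 up and 1589 down. The 4 slides of the shared set gave 0 of 5661 (0%) in limma after adjustment, with 315 at an unadjusted p under 0.05. Slides 48 h A and B had the lowest array weights of all slides (0.426 and 0.164), from a fit with time alone. Such a fit counts a difference between sets as error. The comparison within the shared set had fewer slides at each time. A count of 0 therefore does not show that the ratios were unchanged there. With the slide set as a term in the fit, 34 of 5661 ORFs (0.601%) passed, 26 up and 8 down, with 593 at an unadjusted p under 0.05, and 17 of the 34 were among the 1369. That fit takes its difference between times from the same 4 slides, because only their set holds both times. The other slides enter only its error. The SD of the differences over the ORFs was 0.432 within the shared set and 0.828 between the other 6 slides. Of the ORFs that rose between 48 h C to E and 72 h A to C, 61.2% were also higher at 72 h in the 4 other slides (median 0.0867 against 0.865), and of those that fell 66.9% were also lower (median -0.139 against -0.947). Over all 5661 ORFs with values there, 2722 were higher and 2939 lower on those 4 slides. Leaving out 1 slide moved the total of 1369 to 792 without 48 h C, 652 without 48 h D, 819 without 48 h E, 544 without 72 h A, 624 without 72 h B and 647 without 72 h C. Without 48 h B it was 2307. What made the sets was not tested.

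**Figure D2:**
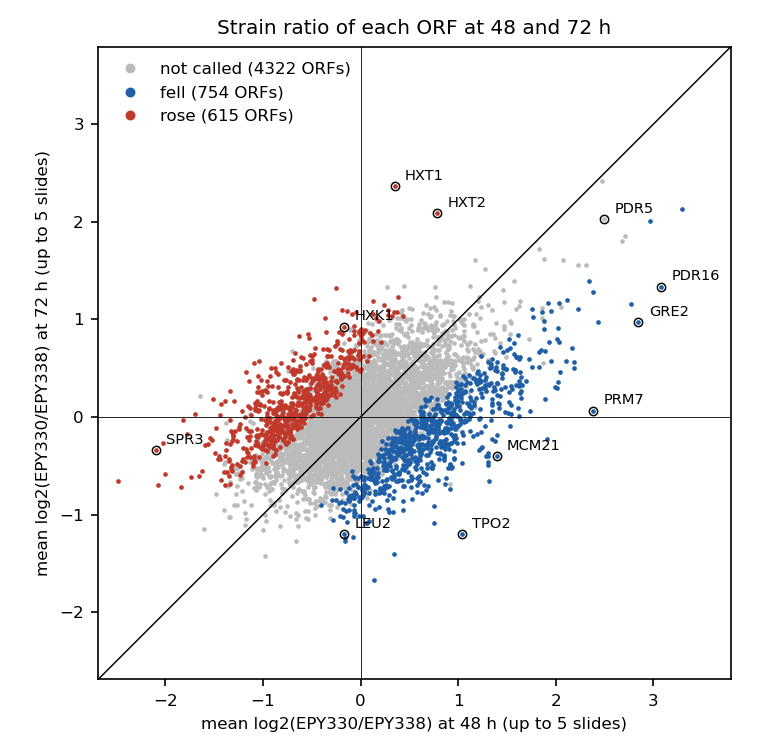
Mean log2(EPY330/EPY338) at 48 h (x axis) and 72 h (y axis) for each of the 5691 ORFs tested, with the 754 that fell in blue, the 615 that rose in red and the line of equal ratios in black. ORFs that fell lie mostly to the right of 0 at 48 h, and HXT1 (2.37 at 72 h) and HXT2 (2.09) are the highest of those that rose.

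The 12 largest falls and 12 largest rises were taken among ORFs that passed the test with all 48 h slides on one side of all 72 h slides. The falls were led by genes that were higher in the producer at 48 h, several of them known from drug and stress responses. PRM7, a pheromone-regulated membrane protein, had log2 ratios of 1.72, 1.90, 2.78, 2.63 and 2.90 at 48 h and -0.18, -0.12, -0.18, 0.30 and 0.50 at 72 h. The ratio was high on every 48 h slide and near 0 on every 72 h slide, a difference of -2.32 ± 0.25 (SE), or 5.00-fold, with an adjusted p of 0.000501 and a within-set difference of -1.41. TPO2, a polyamine exporter of the plasma membrane, had 1.30, 0.65, 1.05, 1.07 and 1.13 at 48 h and -1.21, -1.54, -1.60, -0.35 and -1.31 at 72 h. It passed from higher to lower in the producer on all 10 slides (-2.24 ± 0.23, 4.73-fold, adjusted p = 0.000501, within-set -1.80). GRE2 encodes a methylglyoxal reductase induced by many stresses. Its ratio was 1.94, 4.17, 2.52, 2.92 and 2.69 at 48 h and 0.55, 0.47, 1.16, 1.08 and 1.59 at 72 h, still above 0 at 72 h on all slides, with a difference of -1.88 ± 0.34 (adjusted p = 0.00522, within-set -1.72). PDR16, a phosphatidylinositol transfer protein and target of Pdr1p, kept a positive ratio too. Its values were 2.20, 3.30, 3.24, 3.21 and 3.44 at 48 h and 1.25, 0.79, 1.96, 1.11 and 1.58 at 72 h, and the difference was -1.74 ± 0.26 (adjusted p = 0.00305, within-set -1.41).

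Others of the 12 largest falls belong to metabolism, cell wall and cell division. GPP2, a glycerol-3-phosphatase of the osmotic response, gave 1.30, 1.02, 0.94, 1.48 and 1.79 at 48 h and -0.62, -0.91, -0.36, -0.20 and -0.23 at 72 h. The 72 h slides all lay below 0 and the 48 h slides all near or above 1 (-1.77 ± 0.21, adjusted p = 0.000708, within-set -1.38). TIS11, an RNA-binding protein that removes transcripts of iron-using proteins when iron is short, gave 0.21, -0.36, 0.40, 0.62 and 0.82 at 48 h and -1.78, -1.19, -1.34, -1.04 and -1.70 at 72 h. Its difference was -1.75 ± 0.23 (adjusted p = 0.00144, within-set -1.29). HIS3, of histidine synthesis, for which both strains carry the his3Δ1 allele, went from 1.30 ± 0.64 to -0.49 ± 0.16 (mean ± SD, n = 5 slides here and below unless a number is given). MCM21, a kinetochore protein, went from 1.40 ± 0.66 to -0.40 ± 0.34, and its mean at 24 h was -0.30, so of the 3 times its ratio was above 0 at 48 h alone. PST1, a cell wall protein induced by wall damage, went from 0.13 ± 0.47 to -1.67 ± 0.69, and PUN1, a plasma membrane protein linked to wall stress, from 1.31 ± 0.87 to -0.66 ± 0.54. Within-set differences were -1.01 for HIS3, -0.85 for MCM21, -0.57 for PST1 and -1.43 for PUN1. The uncharacterized YHL026C went from 1.92 ± 0.68 to -0.23 ± 0.58 and YLR179C from 0.75 ± 0.57 to -1.09 ± 0.41, with within-set differences of -1.27 and -1.30. All 12 falls passed the test with any 1 slide left out, which their choice by size and separation on these same slides made likely.

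The largest rise was in HXT1, the low-affinity glucose transporter that glucose induces. Its ratios were 0.40, 1.08, 0.15, 0.047 and 0.073 at 48 h and 2.76, 2.97, 3.46, 1.26 and 1.39 at 72 h. The strains were close to equal on 4 of the 5 slides at 48 h, whereas the producer was higher on every 72 h slide and most so on A to C (2.02 ± 0.38, 4.05-fold, adjusted p = 0.00593). Its within-set difference was 0.59. Most other large rises were ratios below 0 at 48 h that came back to near 0. SPR3, a septin made in sporulation, gave -1.69, -2.69, -1.81, -2.16 and -2.14 at 48 h and -0.17, 0.066, 0.79, -0.91 and -1.48 at 72 h. The lowest 72 h value lay only just above the highest at 48 h (1.76 ± 0.35, adjusted p = 0.00647, within-set 1.0). DUO1, a subunit of the DASH ring that joins kinetochores to microtubules, gave -2.10, -1.97, -1.96, -2.34 and -1.66 at 48 h and -0.30, -0.39, -0.20, -0.67 and -1.35 at 72 h, a difference of 1.42 ± 0.22 (adjusted p = 0.00329, within-set 1.02). The retrotransposon ORF YBR012W-B had its larger shift within the set. Its values were -1.48, -0.50, -0.24, -0.24 and -0.68 at 48 h and 0.78, 0.78, 1.0, 0.88 and 0.73 at 72 h, tight at 72 h (1.46 ± 0.22, adjusted p = 0.00318, within-set 1.79), and Ty elements have many near-identical copies that a spot cannot separate.

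MTW1, also of the kinetochore though not in the kinetochore list counted here, went from -0.93 ± 0.51 to 0.42 ± 0.47, and VAC14, a regulator of a vacuolar phosphoinositide, from -1.04 ± 0.31 to 0.26 ± 0.55. PGM1, a phosphoglucomutase that links galactose breakdown and glycogen to glycolysis, went from -1.06 ± 0.35 to 0.25 ± 0.35. The within-set differences were 0.34, 0.56 and 0.68 in that order. The other 5 of the 12 largest rises were ORFs without a described function, of which YAL066W, YCL046W, YJL086C and YJL022W have no match in the annotation used. They rose by 1.79, 1.61, 1.47 and 1.29, with within-set differences of 0.74, 0.70, 0.39 and 1.02. YCR025C rose by 1.34 (within-set 0.34). All 12 rises passed the test with any 1 slide left out, which was made likely by the way they were picked, as for the falls.

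**Figure D3:**
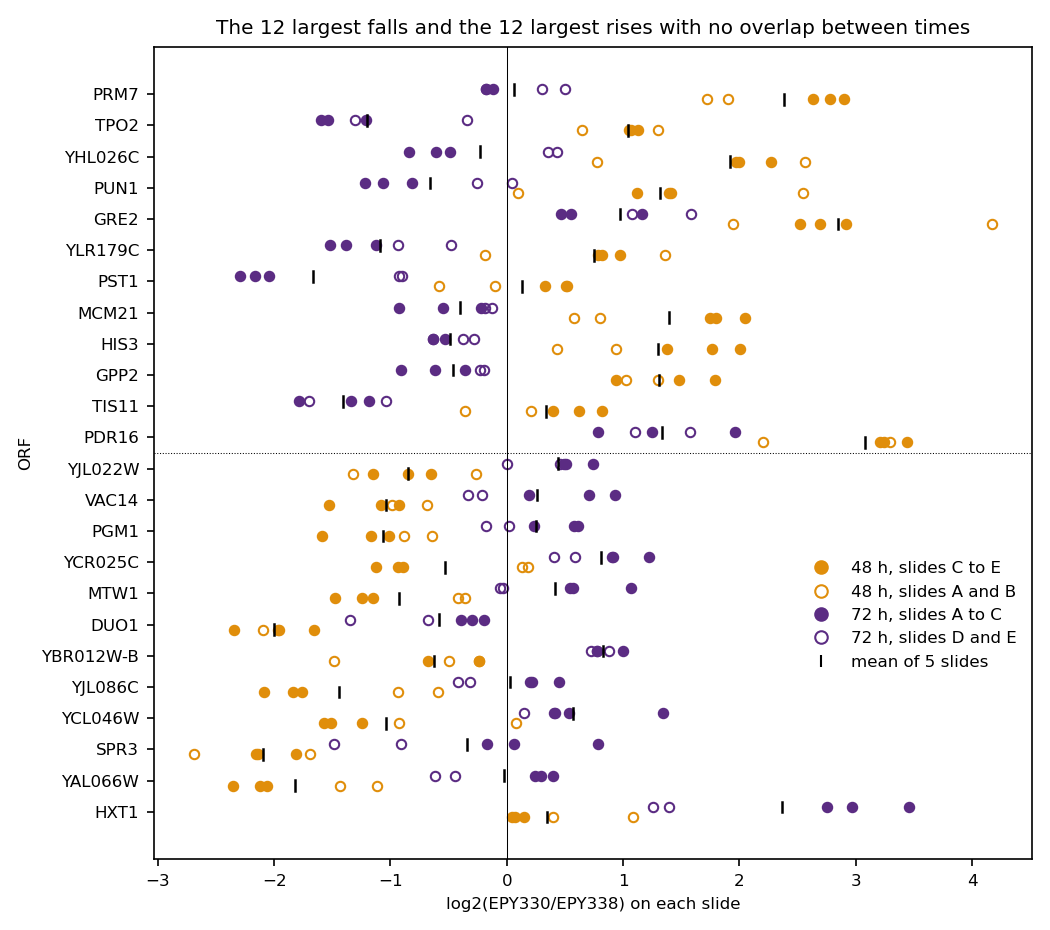
log2(EPY330/EPY338) on each slide for the 12 largest falls (top) and the 12 largest rises (bottom) among ORFs that passed the test with no overlap between times, with 48 h in orange, 72 h in purple, slides of the shared set as open circles and the mean of 5 slides as a bar. Open circles of the 2 times lie closer together than filled ones for most ORFs, while TPO2, GRE2 and YBR012W-B also separate widely on the open circles.

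The shares of drug efflux genes that rose or fell were near those of all ORFs. The list holds exporters and their regulators, and also the lipid transfer gene PDR16. Of 34 members tested, 3 rose (8.82%) and 4 fell (11.8%), beside 10.8% and 13.2% of all ORFs. The median difference was -0.0383 beside 0.00633 for all ORFs. PDR5, the main multidrug ATP-binding cassette pump, had ratios of 2.67, 1.61, 2.5, 2.53 and 3.17 at 48 h and 2.38, 2.38, 2.16, 1.43 and 1.81 at 72 h. The producer was higher on every slide, the 2 times overlapped, and the difference of -0.46 ± 0.27 had an adjusted p of 0.219. PDR5 passed as a fall (-0.69) without 48 h B. The difference turned to 0.21 with the slides scaled to one spread and to 0.25 with quantile normalization. PDR12, the weak acid pump, went from 0.67 ± 0.18 to 0.93 ± 0.21 (adjusted p = 0.263), and the activators PDR1 and PDR3 differed by -0.23 ± 0.25 and 0.26 ± 0.17 (adjusted p = 0.521 and 0.257). The 4 that fell were TPO2 and PDR16, described above, and the polyamine exporters TPO1 and TPO4. TPO1 gave 1.40, 1.58, 2.42, 2.23 and 2.48 at 48 h and 0.61, 0.80, 0.84, 0.82 and 1.48 at 72 h, so the producer stayed higher at both times (-1.11 ± 0.24, adjusted p = 0.00864, within-set -0.34). TPO4 went from 0.80 ± 0.19 to -0.067 ± 0.26 (adjusted p = 0.00689, within-set -0.80). The 3 that rose, all exporters of the major facilitator family, differed by small amounts, AQR1 by 0.70, QDR1 by 0.64 and AZR1 by 0.63, with within-set differences of 0.44, 0.17 and 0.21. AQR1 was lost without 48 h D or E or 72 h A or B, QDR1 without any 1 of 48 h C to E or 72 h A to C, and AZR1 without any 1 of these or 72 h D or E, so the number that rose was 0 without 48 h D or E or 72 h A or B, and 1 without 48 h C or 72 h C. It was 6 without 48 h A or B, and the number that fell was 9 without 48 h B.

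Of the 7 engineered and marker genes, 3 fell (42.9%, beside 13.2% of all ORFs) and 1 rose (14.3%, beside 10.8%). LEU2 is present in these leu2Δ0 strains on the plasmid, as the Leu2d marker. Its ratios were -0.28, -0.23, -0.11, -0.014 and -0.21 at 48 h and -1.36, -1.27, -1.41, -1.25 and -0.72 at 72 h. The strains were close to equal on all 48 h slides and the producer was lower on all 72 h slides (-1.03 ± 0.17, 2.05-fold, adjusted p = 0.00403, within-set -0.73), and this fall passed the test with any 1 slide left out. A smaller share of cells with the plasmid and less transcript per cell cannot be told apart in RNA of a whole culture. ERG20, the farnesyl diphosphate synthase that also has a GAL1-driven copy, went from 0.27 ± 0.46 to -0.71 ± 0.44 (adjusted p = 0.017), but its within-set difference was -0.039 and the call was lost without 72 h A or B. URA3, repaired in both strains, went from 0.74 ± 0.66 to -0.15 ± 0.16 (n = 5 and 4, adjusted p = 0.0405, within-set -0.19), and its call was lost without any 1 of 48 h C to E or of the 72 h slides. The URA3 call was also lost with the trend along the ORF order removed. HMG1, whose truncated form is the tHMGR of these strains, rose from -0.39 ± 0.29 to 0.40 ± 0.43 (adjusted p = 0.0237, within-set 0.46) and was lost without 48 h C or 72 h B or C. UPC2, the sterol regulator, went from -0.31 ± 0.60 to -1.04 ± 0.30 on 3 and 4 slides (adjusted p = 0.0914), and it passed as a fall (-1.03) without 48 h A. ERG9, squalene synthase, differed by -0.28 ± 0.23 (adjusted p = 0.381), with a within-set difference of 0.42. The number of these genes that fell was 1 without 72 h A or B.

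Most genes of ergosterol synthesis fell. The pathway runs from acetyl-CoA through mevalonate and farnesyl diphosphate to squalene and the sterols, and the strains draw on its first part for amorphadiene. Of 27 genes, 15 fell (55.6%) and 2 rose (7.41%), beside 13.2% and 10.8% of all ORFs. The median ratio of the list went from 0.441 to -0.128. ERG13, HMG-CoA synthase, gave 0.35, 0.61, 0.58, 0.75 and 0.77 at 48 h and -0.94, -0.42, -0.52, -0.58 and -0.83 at 72 h. The 2 times were 0.77 apart at their nearest slides (-1.27 ± 0.17, adjusted p = 0.00144), and the within-set difference of -1.19 was close to the whole. ERG2, the sterol C-8 isomerase, went from 1.64 ± 0.44 to 0.26 ± 0.46 (adjusted p = 0.00529), ERG1, squalene epoxidase, from 0.86 ± 0.51 to -0.42 ± 0.21 (adjusted p = 0.00513), and MVD1, mevalonate diphosphate decarboxylase, from 1.23 ± 0.72 to -0.15 ± 0.42 (adjusted p = 0.00976). Their within-set differences were -0.70, -0.90 and -1.07. The 2 that rose were HMG1 and ECM22, an activator of sterol genes (0.81 ± 0.18, adjusted p = 0.0105, within-set 0.34). Within the set the median of the list was -0.207, with 17 of 27 genes lower at 72 h. The number that fell was 8 without 48 h D, 72 h A or 72 h B and 9 without 72 h C, and the number that rose was 1 without 48 h C or 72 h B or C.

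Stress genes fell in part. Among 29 genes of glycerol metabolism and osmotic stress, 8 fell (27.6%) and 0 rose, beside 13.2% and 10.8% of all ORFs. GPP1, the second glycerol-3-phosphatase, gave 1.40, 1.32, 2.24, 2.40 and 2.09 at 48 h and 0.16, -0.16, 0.085, 0.33 and 0.52 at 72 h, so both of these paralogs, which are alike in sequence, fell (-1.71 ± 0.23, adjusted p = 0.00171, within-set -0.94). YGP1, a secreted glycoprotein made on stress and starvation, went from 2.03 ± 0.25 to 0.36 ± 0.70 (adjusted p = 0.00403, within-set -0.68). The median of the list within the set was -0.0159, and 5 genes fell without any 1 of 48 h C to E or 72 h A or B, and 16 without 48 h B. Of 21 aldehyde and aryl alcohol reductases, 8 fell (38.1%) and 0 rose, beside 13.2% and 10.8% of all ORFs. Of the 21, 18 were lower at 72 h over all slides and 18 within the set (median -0.245). Next to GRE2, they included the old yellow enzyme OYE2 (-1.21 ± 0.31, adjusted p = 0.0158, within-set -0.073), the aryl alcohol dehydrogenase AAD14 (-0.99 ± 0.32, adjusted p = 0.04, within-set -1.52) and the glutathione-dependent formaldehyde dehydrogenase SFA1 (-0.94 ± 0.22, adjusted p = 0.0128, within-set -0.22). OYE2 was lost without 72 h A and AAD14 without 48 h D or E or 72 h A, B, D or E, and the number that fell was 2 without 72 h A, 3 without 72 h B, 4 without 48 h C or D and 5 without 72 h C.

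Of 36 genes of peroxide and superoxide defense, 12 fell (33.3%) and 0 rose, beside 13.2% and 10.8% of all ORFs. SOD2, the mitochondrial superoxide dismutase, went from 1.48 ± 0.37 to 0.047 ± 0.56 (adjusted p = 0.00528), the carbonic anhydrase NCE103 from 1.54 ± 0.48 to 0.12 ± 0.55 (adjusted p = 0.00641), and the mitochondrial peroxiredoxin PRX1 from 1.59 ± 0.44 to 0.33 ± 0.57 (adjusted p = 0.0089). The glutathione peroxidase GPX1 went from 2.02 ± 0.96 to 0.80 ± 0.29 (adjusted p = 0.0276) and was lost without any 1 of 48 h C to E or 72 h A to C. Within-set differences were -0.51, -0.64, -0.24 and -0.063, and the median of the list within the set was -0.0554. The number that fell was 4 without 72 h A, B or C, 5 without 48 h D and 6 without 48 h C or E, and 3 genes rose without 48 h B and 1 without 48 h D. Of 38 cytosolic and mitochondrial chaperones, 12 fell (31.6%) and 0 rose, beside 13.2% and 10.8% of all ORFs. They included SSZ1, the Hsp70 of the ribosome (-1.26 ± 0.22, adjusted p = 0.00487, within-set -0.89), HSP31 (-1.20 ± 0.25, adjusted p = 0.00734, within-set -0.61), the mitochondrial J-protein MDJ1 (-1.10 ± 0.25, adjusted p = 0.0107, within-set -0.19) and the membrane protein HSP30 (-0.96 ± 0.19, adjusted p = 0.00647, within-set -0.57). The median of the chaperones within the set was -0.0195, and 7 fell without 48 h D.

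Part of the cell wall and iron genes fell. Of 50 genes of wall synthesis and integrity, 18 fell (36%) and 1 rose (2%), beside 13.2% and 10.8% of all ORFs. Next to PST1 and YGP1 they included KRE2, a mannosyltransferase (-1.24 ± 0.24, adjusted p = 0.00632, within-set -0.47), and CRH1, which links chitin to glucan (-1.12 ± 0.24, adjusted p = 0.00767, within-set -0.28). WSC4 was the 1 that rose (0.56 ± 0.19, adjusted p = 0.0468, within-set 0.50), a call lost without any 1 of 48 h C to E or of the 72 h slides. The number that fell was 8 without 48 h D or 72 h A or B, 10 without 48 h E or 72 h C and 11 without 48 h C. The number that rose was 6 without 48 h B and 2 without 48 h A. The iron regulon holds the genes that the activators Aft1p and Aft2p switch on when iron is short. Of 30 members, 10 fell (33.3%) and 1 rose (3.33%), beside 13.2% and 10.8% of all ORFs. The median of the regulon moved little with the slides used, -0.381 on all slides and -0.323 within the set. FIT3, a wall mannoprotein that holds siderophore-bound iron, gave 0.78, 0.82, 0.62, 0.72 and 0.83 at 48 h and -1.18, -1.22, -1.08, -0.42 and -0.67 at 72 h. The 5 slides at 48 h lay within 0.21 of each other and all 72 h slides were below 0 (-1.67 ± 0.19, adjusted p = 0.000501, within-set -1.35). ISU1, the scaffold of iron-sulfur cluster assembly, went from 1.35 ± 0.57 to 0.061 ± 0.38 (adjusted p = 0.00717, within-set -0.39), and VHT1, a biotin transporter, from 0.64 ± 0.58 to -0.56 ± 0.28 (adjusted p = 0.00776, within-set -0.27). FRE4, a reductase, rose (0.62 ± 0.18, adjusted p = 0.0275, within-set 0.15) but was lost without any 1 of 48 h C to E or 72 h A to C. The number of iron genes that fell was between 7 and 11 with 1 slide left out.

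Respiratory chain genes had the highest median ratio at 48 h of the lists counted, and most of them fell. Of 29 subunits of the respiratory chain and cytochrome c, 19 fell (65.5%) and 1 rose (3.45%), beside 13.2% and 10.8% of all ORFs. The median ratio of the list went from 1.16 to 0.163. COX7, a subunit of cytochrome c oxidase, gave 3.35, 1.68, 3.33, 2.95 and 2.56 at 48 h and 1.04, 0.67, 0.81, 1.63 and 1.64 at 72 h. All values stayed above 0 and the 2 times barely separated (-1.62 ± 0.31, adjusted p = 0.00599, within-set -0.88). The succinate dehydrogenase subunits SDH3 and SDH2 went from 1.61 ± 0.55 to 0.091 ± 0.57 and from 1.65 ± 0.49 to 0.33 ± 0.67 (adjusted p = 0.00632 and 0.0118), and QCR7, of the cytochrome bc1 complex, from 1.33 ± 0.34 to -0.033 ± 0.50 (adjusted p = 0.00513). Within-set differences were -0.78, -0.17 and -0.64. COX5B, the oxidase subunit made when oxygen or heme is low, was the 1 that rose (0.58 ± 0.20, adjusted p = 0.048, within-set 0.14). That call was lost without any 1 of 48 h C to E or of the 72 h slides, and with the trend along the ORF order removed. Of 13 ATP synthase subunits, 8 fell (61.5%) and 0 rose, beside 13.2% and 10.8% of all ORFs. ATP7 gave 1.51, 1.39, 2.38, 2.65 and 2.15 at 48 h and 0.026, 0.13, -0.50, 0.76 and 1.08 at 72 h, with 72 h A to C near or below 0 and D and E near 1 (-1.72 ± 0.31, adjusted p = 0.00513, within-set -0.53). ATP1, ATP17 and ATP16 differed by -1.27 ± 0.25, -1.27 ± 0.22 and -1.20 ± 0.24 (adjusted p = 0.00641, 0.00431 and 0.00689, within-set -0.43, -0.55 and -0.40). Within the set, 24 of 29 respiratory chain genes and 11 of 13 ATP synthase genes were lower at 72 h, with medians of -0.291 and -0.398.

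Carbon metabolism of the mitochondrion and of acetate also gave more falls than rises. Of 24 genes of the TCA cycle, 14 fell (58.3%) and 0 rose, beside 13.2% and 10.8% of all ORFs. MDH1, malate dehydrogenase, went from 2.04 ± 0.64 to 0.46 ± 0.65 (adjusted p = 0.00767, within-set -0.32), and IDH1, isocitrate dehydrogenase, from 1.19 ± 0.47 to -0.18 ± 0.27 on 5 and 3 slides (adjusted p = 0.00734, within-set -1.27). The number that fell was 8 without 48 h D or 72 h A or B and 9 without 72 h C, and 1 rose without 48 h B. The median within the set was -0.21. Among 26 genes of the glyoxylate cycle, gluconeogenesis and acetate use, 12 fell (46.2%) and 1 rose (3.85%), beside 13.2% and 10.8% of all ORFs. SFC1, which exchanges succinate for fumarate across the mitochondrial membrane, went from 1.62 ± 0.59 to 0.0073 ± 0.32 (adjusted p = 0.00389). The peroxisomal citrate synthase CIT2 went from 0.96 ± 0.60 to -0.35 ± 0.43, isocitrate lyase ICL1 from 0.33 ± 0.62 to -0.97 ± 0.56, and the acetyl-CoA synthetase ACS2 from 0.29 ± 0.44 to -0.98 ± 0.22 (adjusted p = 0.00822, 0.0128 and 0.00403). Within-set differences were -0.87, -0.41, -0.22 and -0.60. SIP4, an activator of gluconeogenic genes, rose (0.63 ± 0.18, adjusted p = 0.0241, within-set 0.51) and was lost without 48 h C or D or any 1 of 72 h A to C, and with the trend along the ORF order removed, while 2 genes rose without 48 h A or B.

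The cytosolic ribosome gave more falls than any other list counted. Of 128 ribosomal protein genes, 84 fell (65.6%) and 0 rose, beside 13.2% and 10.8% of all ORFs, and the median ratio went from 0.572 to -0.178. Within the set 112 of 128 were lower at 72 h, with a median difference of -0.225 against -0.774 on all slides. RPS2 gave 0.21, 0.60, 1.49, 1.37 and 0.90 at 48 h and -1.14, -1.16, -1.26, -0.14 and 1e-05 at 72 h. Its 72 h slides A to C were below -1 while D and E were near 0 (-1.65 ± 0.30, adjusted p = 0.00528, within-set -0.48). RPL1A, RPS29B and RPL9A differed by -1.71 ± 0.35, -1.54 ± 0.31 and -1.45 ± 0.28 (adjusted p = 0.00702, 0.00689 and 0.00615, within-set -1.13, -0.84 and -0.78), and each has a near-identical paralog that a spot may not separate. The number that fell was 43 without 72 h A, 48 without 72 h B or C and 52 without 48 h D. Of 64 mitochondrial ribosomal proteins, 4 fell and 4 rose (6.25% each), with a median of 0.0101. Both counts were 10 without 48 h B and 2 without any 1 of 48 h C to E or 72 h A or B, and the number that fell was 7 without 48 h A and 2 without 72 h C. Of 38 translation factors, 14 fell (36.8%) and 1 rose. Elongation factor 2 (EFT2), the initiation factors TIF11 and SUI1 and the eIF3 subunit NIP1 differed by -1.21, -1.17, -1.13 and -1.14 (adjusted p = 0.00864, 0.00641, 0.00615 and 0.00976, within-set -0.32, -0.38, -0.67 and -0.45). GCD2, of the eIF2B exchange factor, rose (0.78 ± 0.26, adjusted p = 0.0417, within-set 0.35) but was lost on leaving out any 1 of 8 slides, all but 48 h A and 72 h E. The number of factors that fell was 8 without 48 h D or any 1 of 72 h A to C.

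Part of the proteasome and histone genes fell. Of 44 proteasome genes, 21 fell (47.7%) and 0 rose, beside 13.2% and 10.8% of all ORFs. The median ratio of the list was 0.456 at 48 h and -0.0742 at 72 h. PUP2, PRE6 and PRE7 of the core particle and RPN6 of the lid went from 1.74 ± 0.64 to 0.063 ± 0.14, 1.25 ± 0.53 to -0.30 ± 0.40, 1.22 ± 0.56 to -0.014 ± 0.40 and 0.75 ± 0.71 to -0.50 ± 0.36 (adjusted p = 0.00329, 0.00403, 0.00847 and 0.0134). Their within-set differences were -0.86, -0.73, -0.32 and -0.11, and 35 of 44 genes were lower at 72 h within the set (median -0.172). The number that fell was 9 without 72 h A, 12 without 48 h D or 72 h B or C and 13 without 48 h E, and 2 rose without 48 h A or B. Of 10 histone genes, 6 fell (60%) and 0 rose, beside 13.2% and 10.8% of all ORFs. HHF2, a histone H4 gene, gave 0.50, 0.63, 0.42, 0.70 and 0.75 at 48 h and -0.78, -0.68, -0.43, -0.73 and -0.72 at 72 h. Its slides of each time lay close together whatever their set (-1.27 ± 0.16, adjusted p = 0.000852, within-set -1.28). HHF1, which encodes the same protein, HTB2 and HHT1 went from 1.49 ± 0.55 to 0.50 ± 0.49, 1.61 ± 0.39 to 0.62 ± 0.51 and 1.59 ± 0.46 to 0.61 ± 0.54 (adjusted p = 0.0237, 0.017 and 0.0223, within-set -0.39, -0.15 and -0.39). HHF1 was lost without 48 h C or D or any 1 of 72 h A to C, HTB2 without 72 h B or C, and HHT1 without 48 h D or any 1 of 72 h A to C. The median difference of the histone list was -0.812 on all slides and -0.184 within the set, where 6 genes were lower at 72 h and 4 higher. The histone count was 1 without 72 h B or C, 2 without 48 h D or 72 h A and 3 without 48 h C. It was 2 with the slides scaled to the same spread and 1 with quantile normalization.

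More hexose transporter genes rose than fell. Of 21 hexose transporters and sensors, 7 rose (33.3%) and 1 fell, beside 10.8% and 13.2% of all ORFs, and the number that rose was 3 without any 1 of 72 h A to C and 4 without 48 h D or E, while 2 fell without 48 h A or B. HXT1 is described above. HXT2, a transporter of intermediate to high affinity, gave 0.87, 1.21, 0.0068, 0.91 and 0.93 at 48 h and 2.64, 2.71, 2.80, 1.12 and 1.17 at 72 h. Its 72 h slides A to C were far above all others, while D and E lay among the 48 h values (1.30 ± 0.35, adjusted p = 0.0199, within-set 0.10), and the call was lost without 48 h C or any 1 of 72 h A to C. GAL2, the galactose permease, had ratios of -0.61, 0.014, 0.06, 0.078 and -0.11 at 48 h and 0.53, 0.83, 0.98, 0.73 and 0.94 at 72 h, with all 72 h slides above all 48 h slides and a within-set difference of 1.13 that was not smaller than the whole (0.91 ± 0.18, adjusted p = 0.00645). HXT15, which has near-identical relatives, went from -1.27 ± 0.35 to -0.24 ± 0.54 (adjusted p = 0.0151, within-set 0.16). HXT9, a target of Pdr1p and Pdr3p, was the 1 that fell. It gave 1.75, 1.28, 2.42, 2.51 and 2.99 at 48 h and 0.72, 0.75, 0.52, 0.25 and 0.25 at 72 h, after a mean of 4.78 at 24 h (-1.69 ± 0.28, adjusted p = 0.00389, within-set -1.26).

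Of 11 genes of the galactose regulon, 2 rose (18.2%, beside 10.8% of all ORFs) and 1 fell (9.09%, beside 13.2%). Next to GAL2, the uridylyltransferase GAL7 went from 0.0061 ± 0.34 to 0.83 ± 0.45 (adjusted p = 0.0241, within-set 0.60) and was lost without 48 h E or any 1 of 72 h A to C. GCY1, a glycerol dehydrogenase induced by galactose, fell from 0.97 ± 0.47 to 0.20 ± 0.30 (adjusted p = 0.0305, within-set -0.016) and was lost without any 1 of 48 h C to E or 72 h A to C, while 2 fell without 48 h B. Of 20 trehalose and glycogen genes, 3 rose (15%, beside 10.8% of all ORFs) and 1 fell (5%, beside 13.2%). This list had a larger median within the set (0.465, 15 of 20 higher) than on all slides (0.309). After PGM1, the glycogen phosphorylase GPH1 and the debranching enzyme GDB1 rose by 0.69 and 0.65 (adjusted p = 0.0428 and 0.0416, within-set 0.67 and 0.46). GPH1 was lost on leaving out any 1 of 48 h A to D or 72 h A to C, and GDB1 without any 1 of 8 slides, all but 48 h B and 72 h D. Neutral trehalase NTH1 fell (-0.72 ± 0.21, adjusted p = 0.0245, within-set -0.052), a call lost without any 1 of 48 h C to E or 72 h A to C. The number that rose was 1 without 48 h C or any 1 of 72 h A to C, 5 without 48 h B, 6 with the trend along the ORF order removed, and 1 with scaled or quantile-normalized slides. HXK1, a hexokinase that glucose represses, was picked after its values were seen. It gave -0.51, -0.34, -0.15, -0.022 and 0.16 at 48 h and 0.42, 1.25, 0.89, 0.60 and 1.48 at 72 h (1.10 ± 0.22, adjusted p = 0.00676, within-set 1.46), with no overlap between the times.

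Genes of sporulation and meiosis gave the highest share of rises of the lists counted. This program is normally silent in haploid cells in rich medium. Of 53 genes, 21 rose (39.6%) and 0 fell, beside 10.8% and 13.2% of all ORFs. The median ratio of the list went from -0.591 to 0.00621. Next to SPR3 they included SPO74, of the meiotic spindle pole, with -1.25, -1.37, -1.82, -1.68 and -1.51 at 48 h and -0.21, 0.021, 0.36, -0.57 and -0.80 at 72 h. The 2 times were separate and all 48 h slides lay below -1, with a difference of 1.29 ± 0.22 (adjusted p = 0.00423, within-set 0.63). The spore wall gene SPS22 and the dityrosine layer enzyme DIT2 rose by 1.22 and 1.22 (adjusted p = 0.0118 and 0.0223, within-set 0.19 and 0.24). DIT2 had 4 slides at 48 h and was lost without 48 h D or E or 72 h A or C. Within the set 36 of 53 genes were higher at 72 h, with a median of 0.154. The number that rose was 6 without 72 h A, 7 without 48 h E or 72 h B, 8 without 48 h D or 72 h C and 10 without 48 h C, and 1 fell without 48 h A or B.

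Of 35 mating genes 8 rose (22.9%, beside 10.8% of all ORFs) and 1, PRM7, fell. The pheromone-regulated PRM10 and FIG1 went from -1.59 ± 0.82 to -0.28 ± 0.26 and -0.56 ± 0.39 to 0.40 ± 0.37 (adjusted p = 0.0137 and 0.012, within-set 0.34 and 0.17). BAR1, the protease that degrades α-factor, and STE2, its receptor, belong to MATa cells, whereas both strains are MATα. BAR1 went from -0.84 ± 0.18 to 0.091 ± 0.30 and STE2 from -0.79 ± 0.31 to -0.024 ± 0.50 (adjusted p = 0.00641 and 0.0337, within-set 0.54 and -0.017), and STE2 was lost without any 1 of 7 slides, 48 h C to E and 72 h A to D. The number that rose was 4 without 72 h A and 5 without 48 h C or E or 72 h B, and the number that fell was 6 without 48 h B and 2 without 48 h A or 72 h E. Of 30 kinetochore and spindle genes, 7 rose (23.3%, beside 10.8% of all ORFs) and 1, MCM21, fell. Next to DUO1, SPC97 of the γ-tubulin complex, AME1 of the inner kinetochore and the kinesin KIP1 rose by 1.61, 1.06 and 0.84 (adjusted p = 0.0117, 0.0156 and 0.0243, within-set 0.47, 0.25 and 0.20). KIP1 was lost without 48 h C or D or any 1 of 72 h A to C. The kinetochore count was 3 without 72 h A, 4 without 48 h D or 72 h B or C, and 12 with the trend along the ORF order removed, and the median of the list was 0.212 on all slides and -0.0153 within the set.

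Of 43 DNA replication and repair genes 7 rose (16.3%, beside 10.8% of all ORFs) and 2 fell (4.65%, beside 13.2%). Within the set 23 were higher and 20 lower at 72 h, with a median of 0.00867. CDC45, ORC6, POL30 and MCM7, all needed at replication origins or forks, rose by 0.90, 0.80, 0.75 and 0.70 (adjusted p = 0.017, 0.0275, 0.0284 and 0.0409). Their within-set differences were 0.17, 0.12, 0.044 and -0.048. CDC45 was lost without 72 h A or B and the other 3 without any 1 of 48 h C to E or 72 h A to C. POL30 and MCM7 were also lost with the trend along the ORF order removed. RNR2, the small subunit of ribonucleotide reductase, fell from 0.89 ± 0.61 to -0.29 ± 0.50 (adjusted p = 0.0156) with a within-set difference of 0.0087. RFA3, of the single-strand binding complex, differed by -0.68 (adjusted p = 0.0355, within-set -0.88) and was lost without 48 h D or E or 72 h A, C or D. The number that rose was 0 without 72 h A or B, 1 without any 1 of 48 h C to E, 2 without 72 h C, 11 without 48 h A and 14 without 48 h B. The number that fell was 4 without 48 h B. The number that rose was 3 with the trend along the ORF order removed.

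**Figure D4:**
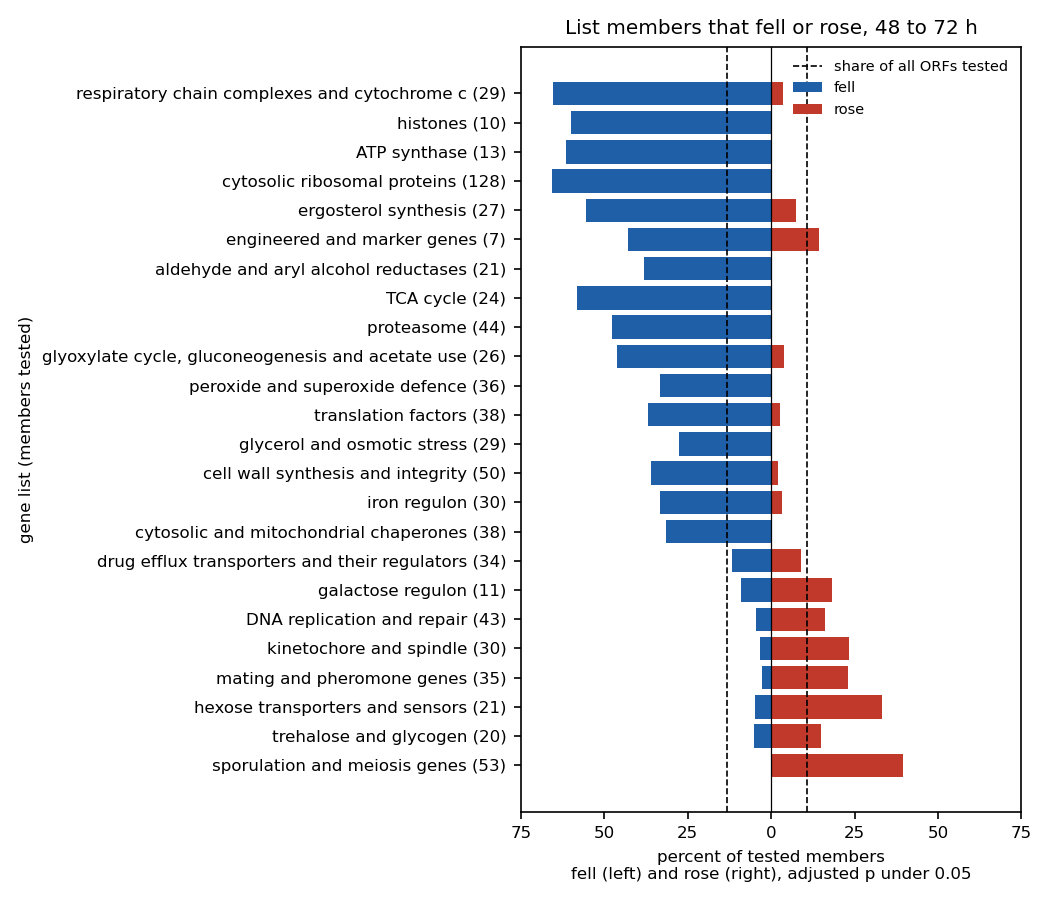
Percent of the tested members of 24 gene lists that fell (blue, left) or rose (red, right) from 48 to 72 h, ordered by the median difference, with the number tested in parentheses and dashed lines at the shares of all ORFs (13.2% fell, 10.8% rose). Respiratory chain and cytosolic ribosomal protein genes reach 65.5% and 65.6% on the left, and sporulation genes 39.6% on the right.

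**Figure D5:**
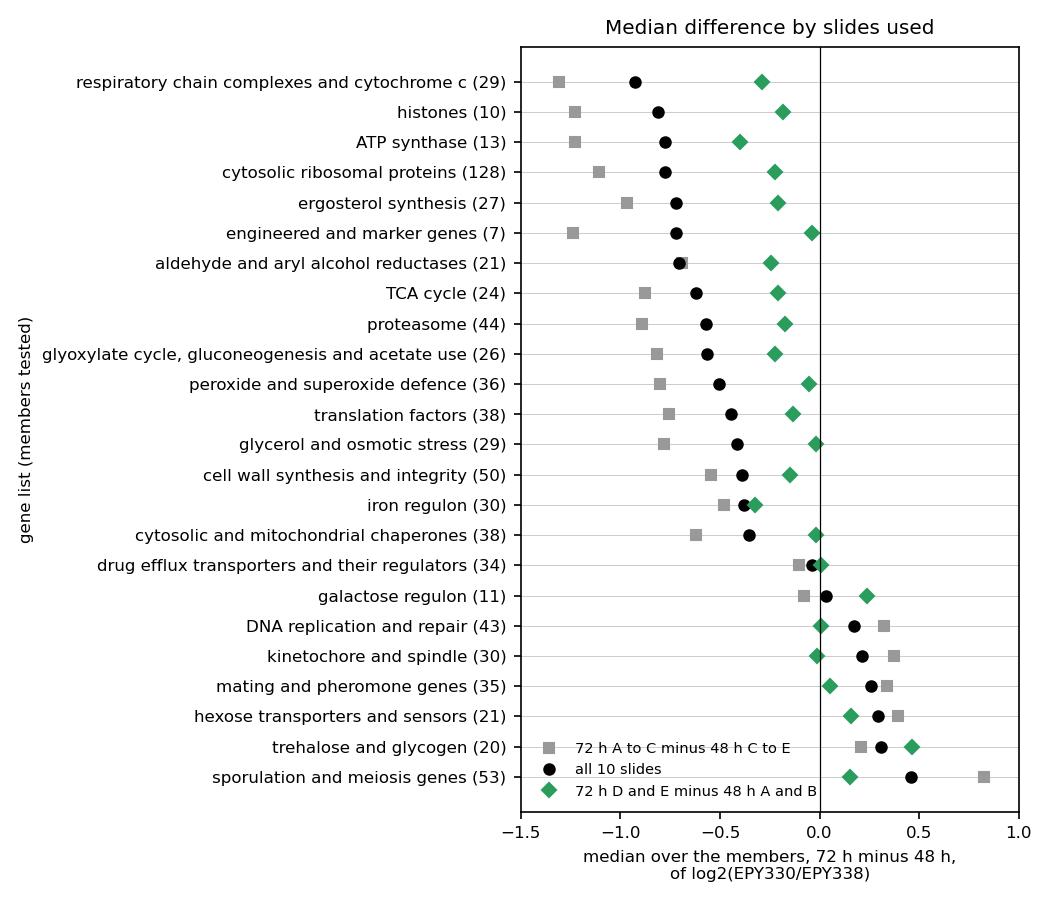
Median difference in log2(EPY330/EPY338) over the members of the same lists, 72 h minus 48 h, on all 10 slides (black), on 72 h A to C against 48 h C to E (gray) and on 72 h D and E against 48 h A and B (green). Green points lie nearer 0 than black ones for most lists, whereas the iron regulon (-0.323 against -0.381) moved little and trehalose and glycogen (0.465 against 0.309) went further from 0.

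In all, 57 lists were counted, and those not described above also differed in their shares. Over all ORFs, 13.2% fell and 10.8% rose. Of 11 pentose phosphate genes, which supply NADPH, 5 fell (45.5%), with 3 without 48 h D or E or 72 h A. Of 16 proton pump genes 7 fell (43.8%), with 3 without 48 h D or E or any 1 of 72 h A to C and 4 without 48 h C or 72 h D or E. Of 23 seripauperins, a family of near-identical cell wall genes, 9 fell (39.1%) and all 23 were lower at 72 h within the set (median -0.341). The seripauperin count was 0 without 48 h D or 72 h A or C, 3 without 48 h E or 72 h B or D, and 5 without 48 h C. Of 16 sterol uptake and anaerobic wall genes 6 fell (37.5%), with 3 without 48 h D or 72 h A or C. None of these 4 lists had a member that rose. Of 37 genes in a list of other amino acid synthesis 13 fell (35.1%) and 2 rose, with 7 falls without 48 h D or 72 h A or B and 8 without 72 h C, and with 4 rises without 48 h A and 1 without 48 h C or D or any 1 of 72 h A to C. Lists nearer to the shares of all ORFs included secretion and glycosylation, with 10 falls (14.7%) and 4 rises (5.88%) of 68. Those falls were 6 without 48 h D or 72 h A or B, and the rises 12 without 48 h B and 2 without 72 h A. Of 379 ORFs that have no match in the annotation, 98 rose (25.9%) and 26 fell (6.86%), compared with 9.73% and 13.7% of the 5312 matched ORFs, and their median was 0.328 on all slides and 0.0374 within the set. By chromosome, as the second letter of the ORF name gives it, the share of rises ran from 28.3% of 106 ORFs named YA to 4.17% of 264 named YE. The share of falls ran from 1.89% (YA) to 20.2% of 129 ORFs named YF. After each slide had been corrected for a trend in ORF-name order, 1624 ORFs passed, of which 1130 were among the 1369.

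Few of the changes were over 2-fold on the 4 slides of the shared set. Of the 536 that passed the test with all 10 slides separated, 43 had a within-set difference over 2-fold, 32 down and 11 up. The slides of the shared set were among those used to pick the 536. Separation on all 10 slides already fixed the sign of the within-set difference, so this count describes its size alone. The falls included PRM7, TPO2, GRE2, GPP2, PDR16, HXT9, FIT3, TIS11, HIS3, ERG13, MVD1, RPL1A and HHF2, and the rises DUO1, YBR012W-B, YJL022W, GAL2 and HXK1. ICY1, which like HXK1 was picked after its values were seen, belongs to the falls, with 2.79, 2.17, 2.23, 1.33 and 2.40 at 48 h and 0.59, -0.45, 0.75, 0.81 and 1.12 at 72 h (-1.62 ± 0.30, adjusted p = 0.00547, within-set -1.52). Of the named genes, PRM7, TPO2, YBR012W-B, HXT9, ERG13, HHF2 and FIT3 also passed with the slide set as a term in the fit, with adjusted p from 0.0141 to 0.0498.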

How the data were processed

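The deposited values are log2 ratios of EPY338 over EPY330, 1 per ORF and slide, from cDNA slides with EPY338 in the red and EPY330 in the green dye and no dye swap. The authors scanned the slides (GenePix Professional 4200A), extracted spots (GenePix Pro 6.1) and normalized each slide by lowess (BRB-ArrayTools 3.5.0). No spot intensities were used here, so signal over background is unknown, and a dye effect common to all slides cancels in the difference between times. Each value was multiplied by -1 to give log2(EPY330/EPY338). ORFs with values on at least 3 slides at both times were fitted with limma 3.58.1 (R 4.3.3), 72 h minus 48 h over 10 slides, with Benjamini-Hochberg adjustment over all 5691 ORFs tested, and a call is an adjusted p under 0.05. The procedure was tested on simulated data with independent noise on each slide and no slide sets, so that test does not cover errors that slides of a set share. Symbols came from RefSeq locus tags (5546 of 6040 ORFs matched). Values on fewer than 5 slides at a time are means over those present.

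ORFs were named by rule. These were the 12 largest rises and falls among ORFs called without overlap between times, up to 4 called members per direction of each of 24 lists, and a set of efflux and engineered genes. Members and lists were chosen with earlier results of these data known, and 3 alternatives by slide set were added after seeing the data. Other alternatives covered scaling, missing values, weighting, the fit and leaving out each slide. The labels do not say that the letters A to E pair slides across times, and the main fit used no pairing. Sequences were not analysed here.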

Additional observations from a re-analysis of the deposited data

Results flagged for a closer look

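The 124 named ORFs at 2 times make 248 groups, of which those with too few values, such as UPC2 at 48 h, were not tested. In 11 groups 1 slide stood far from the others by Dixon's test, and chance gives about 1 in 20 of those tested. At 48 h slide A stood apart for PDR16 (2.20, others 3.21 to 3.44), ATP16 (0.196, others 0.988 to 1.27), SSZ1 (0.122, others 1.01 to 1.37) and GAL2 (-0.613, others -0.106 to 0.0781). Slide C at 48 h stood apart for HXT2 (0.00681, others 0.872 to 1.21). At 72 h slide E stood apart for TPO1 (1.48, others 0.607 to 0.836), LEU2 (-0.72, others -1.41 to -1.25) and GPX1 (1.31, others 0.604 to 0.758). Slide C at 72 h gave -0.555 for SFC1 (others 0.0243 to 0.246). Slide D at 72 h gave 0.0557 for GAL7 (others 0.91 to 1.2) and -0.179 for HSP30 (others -0.942 to -0.733).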

How the results depend on the processing

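The total of 1369 changed ORFs was 3161 with array weights (0.164 for 48 h B to 2.43 for 72 h A), 2284 with robust regression and 308 at an adjusted p under 0.01. It ranged from 544 to 2307 with 1 slide left out, and the number over 2-fold (402) from 285 to 580. That number was 873 with array weights and 227 at an adjusted p under 0.01. With the slide set as a term both counts were 34, on 48 h A and B against 72 h D and E they were 0, and on 48 h C to E against 72 h A to C they were 3119 and 1274. With the letter as a replicate block 1418 ORFs passed, 1240 of them among the 1369. Deviations from the group mean of slides with the same letter correlated at r from -0.23 to 0.38, and only B and D correlated best with their own letter. The slide sets fall on different letters at the 2 times, so these values cannot show whether slides with the same letter pair. Under the other alternatives the total lay between 1332 and 1700. The median difference over all ORFs moved by under 0.1 under every scaling.

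Among named genes, STE2 (-0.0166), MCM7 (-0.0476), RNR2 (0.00867), PDR3 (-0.0323) and ERG9 (0.418) changed sign within the shared set. The fit with the slide set as a term gives the same differences, as it takes them from the same slides. PDR3 also changed sign with the trend along the ORF order removed (-0.0139), and PDR5 with scaled slides (0.215) or quantile normalization (0.25). The cause was not tested. Of 118 named ORFs that passed, 87 passed with any 1 slide left out, 113 with the trend along the ORF order removed and 7 with the slide set as a term. With 1 pair of RNA pools per time and no spot intensities, neither culture-to-culture spread nor the precision of dim spots is known.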
